A study of Rattus norvegicus with 6 samples.

Results

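The vascular endothelial growth factor (VEGF), angiopoietin and endothelial genes of the rat testis are described here as measured by RNA-seq in diabetic and non-diabetic rats. They are the genes of the deposited expression table whose symbol equals one of 10 listed names. Of these, 9 were found among the 35291 genes of the table, namely Vegfa, Flt1, Kdr, Flt4, Tek, Angpt1, Angpt2, Cdh5 and Emcn, and 1 further listed symbol was not analysed here. The list was chosen from the diabetic against non-diabetic values of these same libraries, with Flt1 set against the other endothelial genes. The differences of these 9 genes are therefore a description, given with no p-value.

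The study compared the testes of 3 Sprague-Dawley rats with streptozotocin-induced diabetes (diabetic, DM) with those of 3 non-diabetic rats (ND), to look for RNAs that change in diabetic testicular damage. The diabetic rats were fed a high-fat diet for 1 month and then given 1 intraperitoneal injection of 35 mg/kg streptozotocin, a toxin of the insulin-producing beta cells, whereas the controls were injected with citrate buffer. Testes were taken 8 weeks after the injection. Whether the controls ate the high-fat diet is not stated in the methods, so diet and streptozotocin cannot be told apart as the source of a difference. Whole testis was sequenced, in which fewer cells of a type and less RNA per cell cannot be told apart. Genes of spermatids, the haploid germ cells, summed to 11050 to 13220 FPKM (a gene's level scaled for transcript length and for the size of the library) in each library, which marks the tissue as testis, although the extraction text in the labels speaks of adipose tissue. The summed FPKM of all genes was 453304 to 478211, and libraries correlated as closely between the groups (0.957 to 0.966) as within them (0.958 to 0.965).

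VEGF-A, the product of Vegfa, is the main secreted signal for the growth and leakiness of blood vessels. It binds a pair of receptor kinases on endothelial cells. KDR carries most of the growth signal. FLT1 binds VEGF-A more tightly but signals weakly, and it is also made as a soluble form that holds VEGF-A away from KDR. Angiopoietin 1 activates the receptor TEK and keeps vessels quiet, whereas angiopoietin 2 can block or activate TEK depending on the setting. In the testis the blood vessels run in the interstitium between the seminiferous tubules, beside the Leydig cells, and the tubules themselves hold no vessels.

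The stretches of DNA just before the start sites of Flt1 and Kdr, the VEGF-A receptors whose means differed in opposite directions in these libraries, are shown for comparison. They were taken from RefSeq (build GRCr8), which matched 5 of the symbols (Vegfa, Flt1, Kdr, Flt4 and Emcn). Each holds the 250 bases before the start site and is written 5′ to 3′ along the gene. Capitals mark AGGAAG, a form of the ETS factor site found at many endothelial genes, and TGACGTCA, the palindromic cyclic AMP response element. Both were searched on both strands, do not overlap each other, and were picked after the sequences had been seen.
Flt1, chr12:12333180-12333429, plus strand: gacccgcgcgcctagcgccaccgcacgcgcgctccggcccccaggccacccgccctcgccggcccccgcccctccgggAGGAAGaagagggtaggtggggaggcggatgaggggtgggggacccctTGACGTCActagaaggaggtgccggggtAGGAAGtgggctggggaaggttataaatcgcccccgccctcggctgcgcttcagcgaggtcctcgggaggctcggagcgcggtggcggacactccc
Kdr, chr14:32571813-32572062, plus strand: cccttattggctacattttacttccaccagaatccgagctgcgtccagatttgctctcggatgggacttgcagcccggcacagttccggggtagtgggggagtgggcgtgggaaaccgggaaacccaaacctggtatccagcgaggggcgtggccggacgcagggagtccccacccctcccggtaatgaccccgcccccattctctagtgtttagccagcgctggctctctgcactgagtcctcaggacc
The Flt1 window held AGGAAG 172 and 96 bases before the start site and TGACGTCA 124 bases before it. The Kdr window held neither. AGGAAG was also in the windows of Emcn (243 and 162 bases before the start) and Flt4 (228 bases before it), but in neither of the 2 windows of Vegfa. Of all 33469 promoter windows of the same length, 29.5% held AGGAAG and 1.59% held TGACGTCA, so the former is a common word in such windows. A match is a string of letters and not a measured binding site, and nothing in these libraries measured binding.

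Flt1 was higher in every diabetic testis than in any non-diabetic testis, while the means of 6 of the other 8 genes on the log2 scale lay below the control mean. Of the 9 genes, 6 had a log2 fold change below 0 and 3 above 0 (Flt1, Angpt2 and, by 0.027, Flt4), with a median of -0.24 against -0.021 over all 20338 genes tested, of which 55.6% were below 0. The groups did not overlap in Flt1, which was higher in every diabetic rat, nor in Vegfa and Angpt1, which were lower in every diabetic rat. Over all genes tested, 4.56% had all diabetic rats above all non-diabetic rats and 8.42% had them below. The other 6 overlapped. By the limits the study used (a change of 1 or more on the log2 scale in either direction and p under 0.05 before adjustment), limma called 0 of the 7 genes whose mean reached 0.5 FPKM, beside 1.24% of all genes tested. Because the list was picked on these values, nothing is read from these counts. Kdr and Flt4 lay under the limit of 0.5 FPKM and were not tested.

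**Figure D1:**
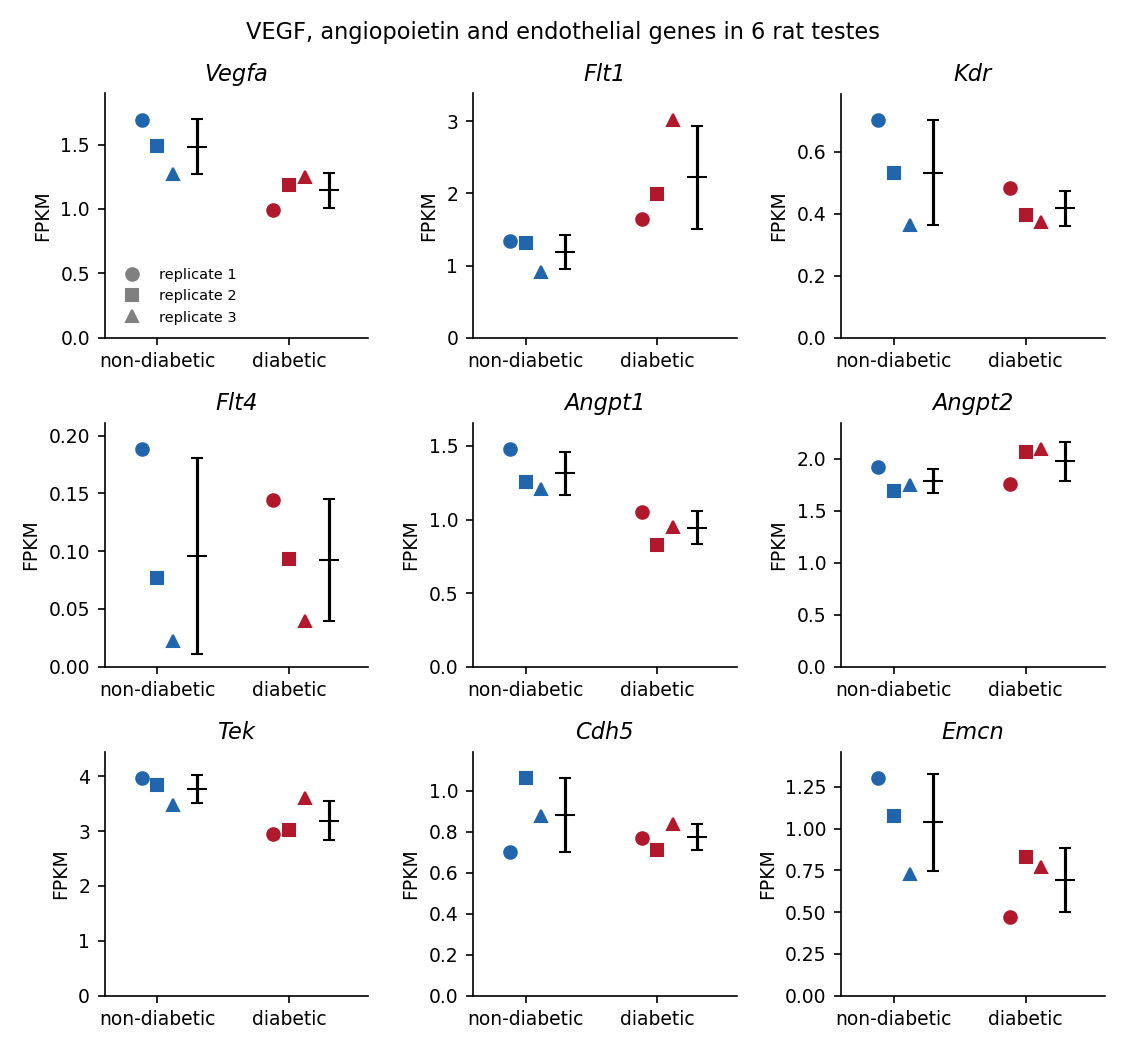
FPKM of the 9 genes in each rat testis, 1 panel per gene with its own axis from 0; blue points are non-diabetic and red points diabetic rats, the marker shape is the replicate number, and the black bars are the mean ± SD (n = 3). Flt1 is higher in all 3 diabetic rats than in any non-diabetic rat, Vegfa and Angpt1 are lower in all 3, and the groups overlap in the other 6 panels.

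Vegfa (ENSRNOG00000019598), the ligand, was measured at 0.995, 1.19 and 1.25 FPKM in the DM testes against 1.69, 1.49 and 1.27 FPKM in the ND testes. All diabetic values lay below all non-diabetic ones, but the gap between the nearest rats of the groups was small. The mean was 1.14 ± 0.133 FPKM (SD, n = 3) against 1.48 ± 0.212 FPKM, a difference of -22.9%, with a log2 fold change of -0.35 (SE 0.14). The level of Vegfa was low, at percentile 53.3 of all 35291 genes by mean FPKM, of which only 20338 averaged 0.5 FPKM or more.

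Flt1 (ENSRNOG00000000940) was measured at 1.65, 1.996 and 3.02 FPKM in the DM testes against 1.33, 1.32 and 0.911 FPKM in the ND testes. Diabetic replicate 3 stood highest and non-diabetic replicate 3 lowest, and the groups did not overlap. The means of 2.22 ± 0.714 and 1.19 ± 0.239 FPKM (SD, n = 3) differed 1.87-fold, with a log2 fold change of 0.83 (SE 0.30). That difference rested in part on diabetic replicate 3, since the log2 fold change was 0.59 without it and 1.01 without diabetic replicate 1. Among the diabetic rats Flt1 had a coefficient of variation of 32.1%, below the 56.8% of Flt4, beside the 27.9% of Emcn and above the 8.17% to 13.8% of the other 6 genes. The table gives 1 value per gene, so that the soluble and the membrane-bound form of FLT1 cannot be told apart.

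Kdr (ENSRNOG00000046829), the receptor that carries most of the VEGF-A signal, was at 0.483, 0.396 and 0.373 FPKM in the DM testes. In the non-diabetic rats it was at 0.704, 0.531 and 0.364 FPKM. The lowest value of all was that of a non-diabetic rat, so the groups overlapped. The means were 0.417 ± 0.0577 and 0.533 ± 0.170 FPKM (SD, n = 3), with a log2 fold change of -0.26 (SE 0.25). This value ranged from -0.47 without non-diabetic replicate 3 to -0.071 without non-diabetic replicate 1.

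Flt4 (ENSRNOG00000002511), the receptor of VEGF-C and VEGF-D and a marker of lymphatic endothelium, was close to the floor of the table. It was measured at 0.145, 0.0932 and 0.0396 FPKM in the DM testes against 0.189, 0.0763 and 0.0224 FPKM in the ND testes. The diabetic values lay inside the range of the controls, and the log2 fold change of 0.027 (SE 0.43) changed sign in 4 of the 10 alternatives tried.

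Of the angiopoietins, Angpt1 (ENSRNOG00000005854) was measured at 1.05, 0.828 and 0.950 FPKM in the DM testes against 1.48, 1.25 and 1.205 FPKM in the ND testes. All diabetic values lay below all non-diabetic ones. The means of 0.943 ± 0.112 and 1.31 ± 0.148 FPKM (SD, n = 3) differed by -28.2%, with a log2 fold change of -0.44 (SE 0.12). Angpt2 (ENSRNOG00000016696) was at 1.76, 2.06 and 2.10 FPKM in the DM testes against 1.92, 1.69 and 1.74 FPKM in the ND testes. Here 1 non-diabetic rat lay above the lowest diabetic rat, and the log2 fold change was 0.14 (SE 0.093). The ratio of Angpt2 to Angpt1 within each rat was 1.67, 2.49 and 2.21 in the diabetic and 1.30, 1.35 and 1.45 in the non-diabetic testes. Its means were 2.12 ± 0.416 and 1.36 ± 0.0766 (SD, n = 3), and the groups did not overlap. This ratio carries the Angpt1 values, which were apart by themselves and are among those that chose the list. It was given no test.

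Tek (ENSRNOG00000008587), the receptor of both angiopoietins, had the highest level of the 9 genes in all 6 libraries. It was measured at 2.95, 3.01 and 3.60 FPKM in the DM testes against 3.97, 3.85 and 3.48 FPKM in the ND testes. Only 2 of the 3 diabetic rats lay below every non-diabetic rat. The means were 3.19 ± 0.357 and 3.77 ± 0.255 FPKM (SD, n = 3), with a log2 fold change of -0.24 (SE 0.10), and the ratio of Tek to Angpt1 overlapped between the groups.

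Cdh5 (ENSRNOG00000013324), the cadherin of endothelial junctions, was at 0.770, 0.713 and 0.839 FPKM in the DM testes against 0.701, 1.06 and 0.879 FPKM in the ND testes. The diabetic values lay inside the range of the non-diabetic ones. The log2 fold change was -0.15 (SE 0.17), and its lowest and highest values with 1 rat left out were -0.29 without non-diabetic replicate 1 and -0.021 without non-diabetic replicate 2. Emcn (ENSRNOG00000022910), a sialomucin on the surface of capillary and venous endothelium, was at 0.471, 0.831 and 0.770 FPKM in the DM testes against 1.31, 1.08 and 0.729 FPKM in the ND testes. The lowest non-diabetic rat lay below 2 of the diabetic rats. The means were 0.691 ± 0.193 and 1.04 ± 0.290 FPKM (SD, n = 3), with a log2 fold change of -0.52 (SE 0.31) that ranged from -0.73 without non-diabetic replicate 3 to -0.30 without diabetic replicate 1.

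Flt1 was next set against the other endothelial genes within each rat, so that a difference shared by all of them cancels. Whether Flt1 came from the same cells of whole testis as these genes was not tested. On the log2 scale, Flt1 minus the mean of Kdr, Flt4, Tek, Cdh5 and Emcn was 1.25, 1.497 and 2.11 in DM testes against 0.50, 0.65 and 0.53 in ND testes. All diabetic rats lay above all non-diabetic rats, and the non-diabetic rats were close together. The means of 1.62 ± 0.44 and 0.56 ± 0.076 (SD, n = 3) differed by 1.06 (SE 0.26). Without diabetic replicate 3 the difference was 0.81. With 12 other endothelial genes as the reference it was 1.09, and with only Tek, Cdh5 and Emcn, a choice made after seeing the data, it was 1.13.

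The same order stood gene by gene. The ratio of Flt1 to Kdr, both on the FPKM scale, was 3.42, 5.04 and 8.09 in DM testes against 1.89, 2.48 and 2.50 in ND testes, with means of 5.52 ± 2.38 and 2.29 ± 0.343 (SD, n = 3). The ratio of Flt1 to Tek was 0.559, 0.663 and 0.840 against 0.336, 0.342 and 0.262. The ratio to Emcn was 3.50, 2.40 and 3.92 against 1.02, 1.22 and 1.25. Against Cdh5 the groups came closest, at 2.14, 2.80 and 3.60 in the diabetic and 1.90, 1.24 and 1.04 in ND testes. Only the ratio to Flt4, whose level was near the floor, overlapped, at 11.4 to 76.4 against 7.07 to 40.6. The ratio of the receptor Flt1 to its ligand Vegfa was 1.66, 1.68 and 2.42 in DM testes against 0.788, 0.885 and 0.717 in ND testes. In FPKM, Flt1 thus exceeded Vegfa in each diabetic rat and in no non-diabetic rat. The ratio of Kdr to Vegfa overlapped between the groups, with means of 0.372 and 0.353. All of these ratios carry the Flt1 or Vegfa values that chose the list, and they were given no test.

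**Figure D2:**
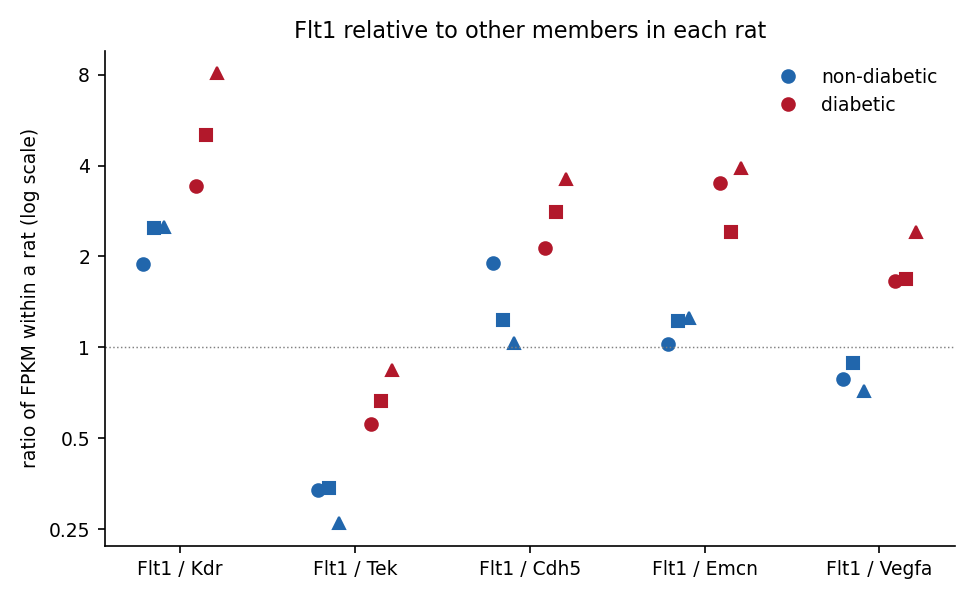
Ratio of the FPKM of Flt1 to that of another gene in the same rat, by denominator, on a log axis with a dotted line at 1; blue points are non-diabetic and red points diabetic rats, and the shape is the replicate number. The 3 diabetic rats lie above the 3 non-diabetic rats for every denominator drawn, and Flt1 to Kdr reaches 8.09 in diabetic replicate 3.

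By level, the order of the mean FPKM in the non-diabetic testes was Tek, Angpt2, Vegfa, Angpt1, Flt1, Emcn, Cdh5, Kdr and Flt4. FPKM is scaled for transcript length, but the forms of a gene are not told apart here, so levels compare only roughly between genes. Only the neighbours Tek and Angpt2, and Kdr and Flt4, had ranges that did not overlap. In the diabetic testes Flt1 stood above Angpt1, with ranges apart, in place of below it. Even the highest, Tek, was at percentile 67.3 of all genes by mean FPKM, and Kdr and Flt4 were at percentiles 41.8 and 27.1, so that none of the 9 stood among the most abundant RNAs of whole testis. Among the non-diabetic rats the values also shared an order. Non-diabetic replicate 1 was the highest of its group in 8 of the 9 genes (not in Cdh5) and non-diabetic replicate 3 the lowest in 7. The order of the diabetic rats was more mixed, with diabetic replicate 3 the highest of its group in 5 and diabetic replicate 1 the lowest in 5. How often each library was highest or lowest over all genes was not counted, so nothing particular to these genes is read from this.

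Of the other genes of these pathways, the one furthest below 0 among those tested was Nrp1 (ENSRNOG00000010744), the neuropilin that serves as a co-receptor of VEGF-A beside KDR. It was measured at 1.76, 1.67 and 1.93 FPKM in the DM testes against 2.94, 3.19 and 2.86 FPKM in the ND testes. The groups were apart and each was tight, with means of 1.79 ± 0.132 and 2.999 ± 0.171 FPKM (SD, n = 3). The log2 fold change was -0.72 (SE 0.13) and the adjusted p was 0.273 by limma, so that it did not pass the correction over all genes. The adjusted p was 0.165 to 0.693 over the alternatives, with the log2 fold change between -0.77 and -0.52. The ratio of Nrp1 to Flt1 was 1.07, 0.837 and 0.639 in DM testes against 2.20, 2.43 and 3.14 in ND testes, and the ratio of Nrp1 to Kdr overlapped. The former carries the Flt1 values that chose the list, and neither ratio was given a test.

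In all, 38 genes of 4 pathway lists were measured and 24 tested. Limma called 0 of them, and 0 had an adjusted p under 0.05, as against 0.0344% of all genes tested. An unadjusted p under 0.05 was found for 2 of the 24, Nrp1 and Egln2, beside 7.46% of all genes tested. The median log2 fold change of the 24 was -0.10, with 16 of them below 0. All diabetic rats lay below all non-diabetic rats in 2 (Nrp1 and Pdk1, a kinase that curbs the use of pyruvate) and above them in 1 (Egln2), beside the 8.42% and 4.56% of all genes tested.

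Of the VEGF family ligands and co-receptors, only Nrp1 of 6 reached the limit for testing. Vegfb was at 0.246 ± 0.0212 FPKM in DM against 0.319 ± 0.0460 FPKM in the ND testes (SD, n = 3), with all diabetic rats lower. Nrp2, the neuropilin of lymphatic vessels, was under 0.5 FPKM in every rat, as were Vegfc and Vegfd, the ligands of FLT4. Pgf, a ligand of FLT1 that does not bind KDR, was listed at 0 in 5 of the 6 libraries.

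Of the 5 angiopoietin-TIE genes, 3 were tested and none passed the test. Ptprb, the phosphatase that damps TEK, had a log2 fold change of -0.15. Dok2, an adaptor of TEK, also had -0.15, and Svep1, a matrix protein of lymphatic vessels, had -0.41. Tie1, the partner receptor of TEK, was at 0.399, 0.328 and 0.335 FPKM in the DM testes against 0.695, 0.772 and 0.372 FPKM in the ND testes. It overlapped between the groups and lay under the limit for testing, as did Angpt4.

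Downstream of the VEGF receptors, 7 of 12 genes were tested, with a median log2 fold change of -0.12. Plcg1, the phospholipase that KDR activates, was at 18.1 FPKM in both groups, with a log2 fold change of 0.0060. The feedback and early genes Rcan1 and Egr3 had -0.17 and -0.20, and the signalling gene Shb had -0.12. Of the 15 genes of oxygen sensing and its targets, a pathway known to raise Vegfa in low oxygen, 13 were tested, with a median of -0.049. Egln2, a prolyl hydroxylase that marks hypoxia-inducible factors for breakdown, was at 49.4 ± 3.36 FPKM in DM against 42.3 ± 1.52 FPKM in the ND testes, with a log2 fold change of 0.22 and an adjusted p of 0.544 by limma. Epas1 and Arnt, subunits of these factors, had -0.049 and -0.0023, and Hif1an, which blocks their activity, had 0.038. None of the 4 passed the test.

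**Figure D3:**
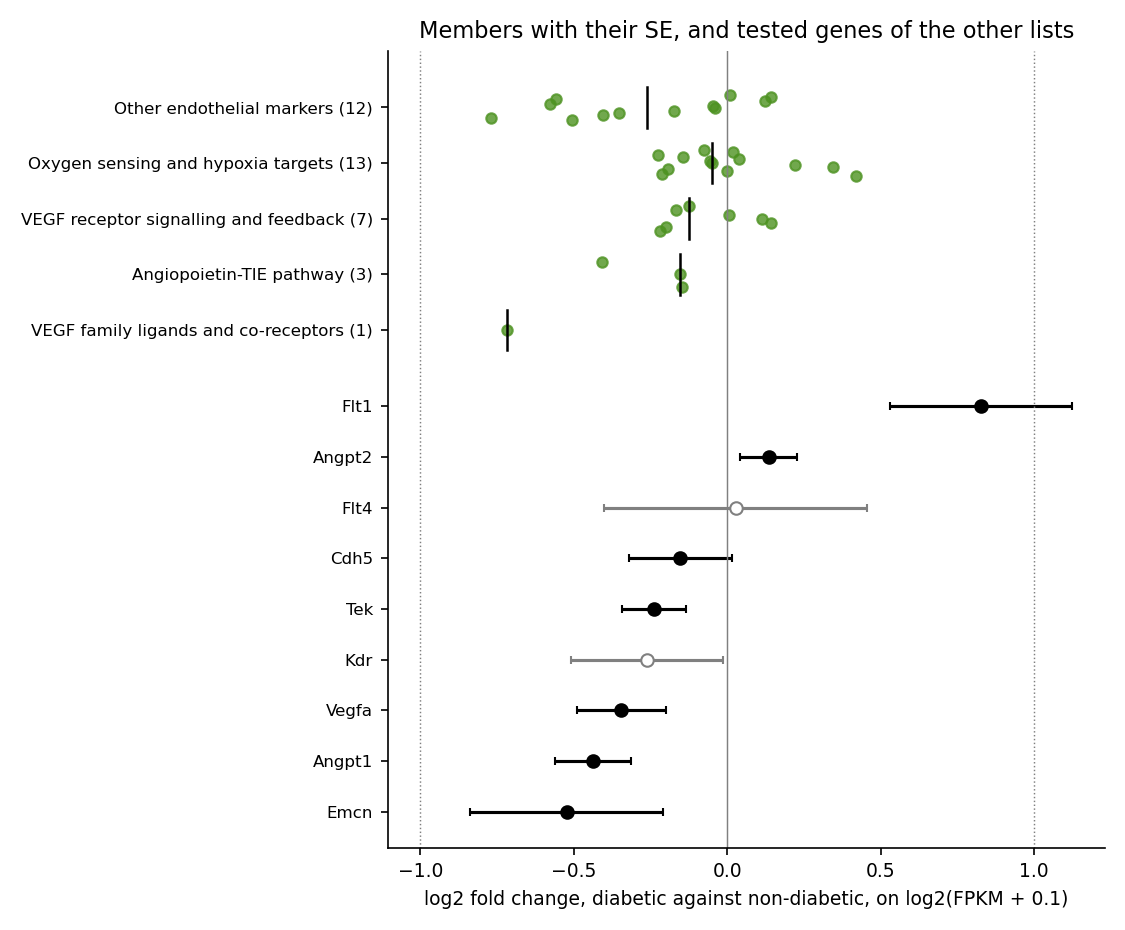
Log2 fold change (diabetic minus non-diabetic, on log2 of FPKM + 0.1) of the 9 genes with their SE (black, or open and grey for Kdr and Flt4, which lay under 0.5 FPKM) and of each tested gene of the other lists (green, with the number tested and the median as a black bar); dotted lines are at -1 and 1. Flt1 at 0.83 is the highest of the genes drawn, and the medians of all 5 other lists lie below 0.

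Endothelial markers outside the list served as a second view of the vessels. Of 24 listed, 23 were measured and 12 tested, and limma called 0 of them, beside 1.24% of all genes tested, with 0 at an adjusted p under 0.05. An unadjusted p under 0.05 was found for 3 of the 12, all of them lower (Cd34, S1pr1 and Podxl), beside 7.46% of all genes tested. Their median log2 fold change was -0.26, and 9 of the 12 were below 0. The other 11 measured genes lay under the limit, and 8 of the 23, Cldn5 at 0 in all rats among them, were under 0.5 FPKM in every rat. The summed level of the list was 26.0 to 26.9 FPKM in DM against 27.5 to 32.1 FPKM in the ND testes. Tal1 alone, a factor of endothelial and blood cells, was 11.4 ± 0.285 and 10.4 ± 0.229 FPKM (SD, n = 3) of that sum. Which cells of whole testis gave the Tal1 signal was not tested, so the sum with Tal1 need not follow the vessels. Without Tal1, a choice made after seeing the data, the sum was 14.8 to 15.2 against 17.1 to 21.9 FPKM.

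The genes with the highest level in that list lay on both sides of 0. Tal1 had a log2 fold change of 0.14, with all diabetic rats above all non-diabetic rats, and Rasip1, a regulator of vessel lumens, had 0.12. Cd34, a surface mucin, had -0.51 (2.16 ± 0.449 against 3.11 ± 0.707 FPKM, adjusted p = 0.666 by limma) and Eng, a co-receptor of the TGF-beta family, had -0.35. The sphingolipid receptor S1pr1 and the mucin Podxl, chosen after their values were seen because the groups were apart, had -0.56 (0.996 ± 0.180 against 1.4996 ± 0.0346 FPKM, adjusted p = 0.613 by limma) and -0.58 (1.005 ± 0.0397 against 1.55 ± 0.175 FPKM, adjusted p = 0.555 by limma). None of these passed the correction over all genes.

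Of the marker lists of other cell types, only that of Leydig cells, which make testosterone, held called genes. The 7 tested Leydig cell markers summed to 31.0 to 61.7 FPKM in DM against 92.4 to 125.7 FPKM in the ND testes, and their median log2 fold change was -1.24. Beside 1.24% of all genes tested, 5 of these markers were called, all lower. These were Star, Cyp11a1, Cyp17a1 and Hsd17b3 of steroid synthesis and the hormone Insl3, with log2 fold changes of -1.24, -1.16, -1.60, -1.26 and -1.62, and of them only Cyp17a1 had an adjusted p under 0.05 (0.0415 by limma, 0.0175 to 0.186 over the alternatives). The markers not called, Lhcgr and Scarb1, lay just short of the limit at -0.999 and -0.996, with adjusted p of 0.0559 and 0.0530 by limma. Both were lower in every diabetic rat. The calls of Star, Cyp11a1 and Hsd17b3 were lost without diabetic replicate 2 (-0.80, -0.82 and -0.78), that of Star also without non-diabetic replicate 2 (-1.10), and that of Hsd17b3 also without diabetic replicate 1 (-1.27) and without non-diabetic replicate 1 (-1.17) or 3 (-1.15). The call of Hsd17b3 was lost with a pseudocount of 1 as well (-0.77). The 8 macrophage markers summed to 27.9 to 33.8 against 35.1 to 37.4 FPKM, with a median of -0.78. Of them, 4 were lower in every diabetic rat, beside 8.42% of all genes tested. At an unadjusted p under 0.05 by limma, 4 were lower, beside 7.46% of all genes tested in either direction, and 0 were called. The markers of pericytes and smooth muscle summed to 80.6 to 85.9 against 81.3 to 103.5 FPKM, with a median of -0.14, 1 lower at an unadjusted p under 0.05 and 0 called by limma. Most of that sum was Acta2, Myh11 and Tagln, with means of 34.8, 24.4 and 13.2 FPKM in DM against 39.3, 26.0 and 12.3 FPKM in ND testes. Whole testis does not tell the smooth muscle of vessels from that of other structures. The part of these cell types in the values of Vegfa, Angpt1 and Flt1 was not tested. Sertoli cell markers summed to 363 to 383 against 317 to 392 FPKM, spermatocyte markers to 376 to 405 against 369 to 402 FPKM, and blood cell markers to 8.29 to 9.54 against 8.78 to 9.45 FPKM, so these 3 sums overlapped. Only 3 of the 6 listed blood cell markers were measured. Their sum was nearly all Alas2 (means of 8.81 and 9.12 FPKM), with Hbb at 0.029 and 0 FPKM, so it cannot show how much blood the tissue held. Lymphatic markers were low (2.70 to 2.80 against 2.68 to 3.19 FPKM), with only Prox1 of 5 tested and Lyve1 under 0.5 FPKM in every rat.

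**Figure D4:**
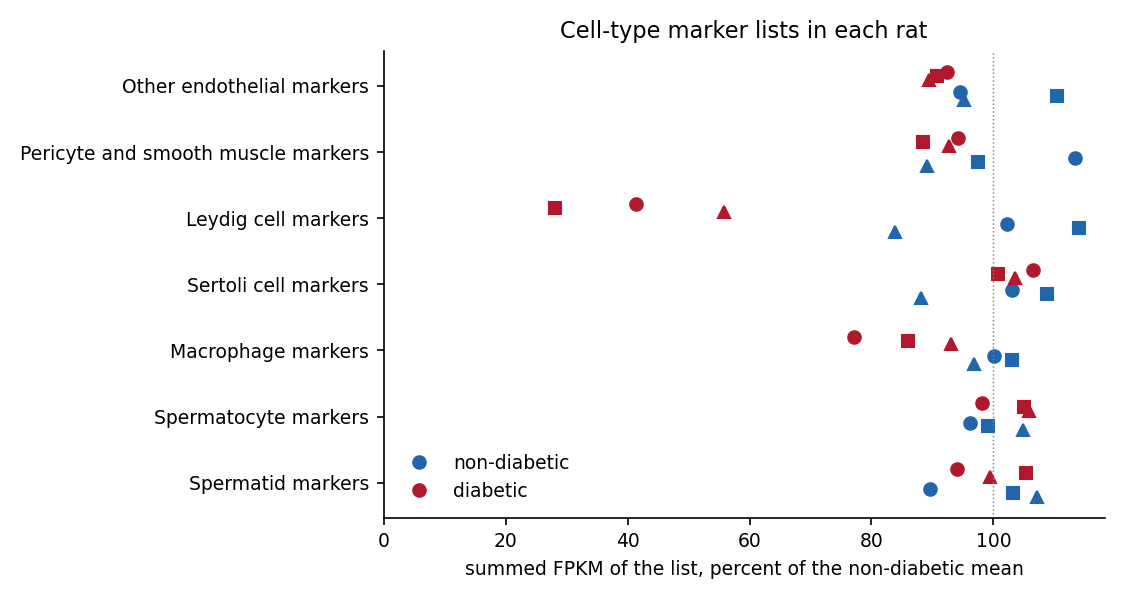
Summed FPKM of each cell type's markers in each rat as a percent of the non-diabetic mean; blue points are non-diabetic and red points diabetic rats, the shape is the replicate number, and the dotted line is at 100%. The Leydig cell sum of the diabetic rats lies at 28.1 to 55.9% of the non-diabetic mean, whereas the other endothelial markers lie at 89.5 to 92.4%. Without Tal1, left out after its values were seen and not drawn separately, they lie at 79.1 to 81.4%, against 91.0 to 116.7% in the non-diabetic rats.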

How the data were processed

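RNA-seq gene levels of 6 rat testes (3 diabetic, 3 non-diabetic) were used; groups come from the labels. The labels number the libraries as replicates without naming the animal; each is taken here as 1 rat, and p-values measure only the spread between these libraries. The authors prepared paired-end libraries, checked them with FastQC, removed rRNA reads with BWA, aligned with STAR and estimated gene FPKM with StringTie; the deposited table holds FPKM per gene. The genome build, the annotation and the tool versions are not given in the sources used here. The table holds no read counts, so the authors' DESeq2 test was not run, and the depth behind a value is not known here.

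The 20338 genes that averaged 0.5 FPKM or more were fitted with limma 3.58.1 in R 4.3.3 (eBayes with trend) on log2(FPKM + 0.1), two-sided, with Benjamini-Hochberg adjustment over all of them; called means a change of 1 or more on the log2 scale in either direction with p under 0.05 before adjustment. The pseudocount makes fold changes of low genes smaller. The 9 genes have the plain standard error of log2 values and no p. The other scripts ran in Python 3.11.15, and the fit was tested on simulated data.

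The members and lists were chosen with earlier results of these data known. The text names all members found, every gene of the VEGF ligand and TIE lists, of each list the genes called or with an adjusted p under 0.05, and up to 4 tested genes with the highest mean FPKM of the other pathway lists and the endothelial list. S1pr1, Podxl, Cd93, Pdk1, Cldn5, Prox1, Lyve1, Acta2, Myh11, Tagln, Alas2, Hbb, Lhcgr and Scarb1 were added after their values were seen. Alternatives changed the pseudocount, the filter, the scaling, the test's trend, the replicate number as a term and the libraries used. Of the series' other files, the small RNA data were not used, and 1 listed symbol and some list genes were not analysed here.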

Additional observations from a re-analysis of the deposited data

How the results depend on the processing

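Over all genes, 253 were called; the count was 91 with a pseudocount of 1, 621 with no filter, 7 at an adjusted p under 0.05 and 246 to 335 with 1 rat left out. A pseudocount of 1 gave 0.67 in place of 1.06 for Flt1 against the other endothelial genes, and 0.81 to 1.24 with 1 rat left out; a larger pseudocount shrinks low genes by construction. The endothelial markers called were 0 to 1 with 1 rat left out: without diabetic replicate 3, Cd93 was called, at -1.04 in place of -0.77 on the log2 scale. The log2 fold change of Flt1 was 0.54 to 1.01 over its 10 alternatives, and no member other than Flt4 changed sign. Not every gene named from the lists was followed over the alternatives, and none under the limit for testing was. Of those followed, 5 changed sign with 1 rat left out: Dok2 (-0.32 to 0.060), Plcg1 (-0.043 to 0.065), Epas1 (-0.14 to 0.011), Arnt (-0.051 to 0.027) and Hif1an (-0.0019 to 0.084). Arnt was also at 0.022 under median-ratio scaling. The cause was not tested. Deviations of rats with the same replicate number correlated at 0.106, 0.0153 and 0.0979. Pairs with unlike numbers were not set beside them, so whether the numbers pair the rats was not settled. With the replicate block, 284 genes were called, 0 of them in the pathway or endothelial lists. Kdr and Flt4, under 0.5 FPKM, were not tested.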
